A study of Mus musculus with 18 samples.

Results

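The genes described here are the chromosome 8 neighbours of *Nr2f6*, a list of 56 genes that lie within about 1.5 Mb of *Nr2f6* in the mouse genome. Members were taken by symbol, and their distance was measured from the nearer end of *Nr2f6* in the RefSeq annotation of GRCm38. Of the 56 genes, 55 had a row among the 37236 genes of the expression table and *Cpamd8* had none. The testing threshold, a mean over all samples of 10 or more normalized counts, was reached by 51 members, which were tested together with all 11992 genes at that level. *Ankle1*, *Slc27a1*, *Lrrc25* and *Insl3* were below it, and *Insl3* had 0 reads in every sample. The list is a selection, since RefSeq places 115 protein-coding genes in this window, of which 55 are members.

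The samples were CD3+ T cells sorted from B16-OVA tumors, a mouse melanoma line made to express ovalbumin, after harvest at d14. Mice were Nr2f6+/+ or Nr2f6-/-, all labelled C57BL/6, had received 500000 tumor cells s.c. and were given 0.5 mg of anti-PD-L1 antibody or of the control antibody IgG2b from d3 on. Each genotype had 3 samples under IgG2b and 6 under anti-PD-L1, which makes 18. The labels do not give the age of the mice. The Nr2f6-/- mice lack the gene in all cells, and the study states that they were repeatedly backcrossed onto C57BL/6. The strain of the embryonic stem cells and the construct of the targeted allele are not given in the sources used here. By their library numbers, samples 4 to 6 under anti-PD-L1 form a second set of libraries in both genotypes, so a comparison between the antibodies can be made within the first set only, while the genotypes can be compared within each set.

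NR2F6 is an orphan nuclear receptor that dampens the expression of cytokine genes in activated T cells by interfering with NFAT and AP-1. In a mouse line made by gene targeting, the DNA next to the altered gene is inherited together with it, and it stays that of the stem cell donor for a stretch on either side after backcrossing. Genes in that stretch can differ between knockout and wild-type mice through linked sequence variants or through the altered locus itself, whereas a gene on another chromosome is not linked to it. The comparisons below address whether the neighbours differed by genotype under each antibody. The data hold no strain variants, so linked variants, an effect of the altered locus and an effect of losing the NR2F6 protein cannot be told apart here.

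No read of *Nr2f6* was counted in any of the 9 knockout samples (0 in each). The wild-type samples had 20.2, 101 and 35.7 normalized counts with IgG2b, and between 26.1 and 201 with a median of 87.0 with anti-PD-L1. Each sample held between 12473391 and 18609482 reads on genes, and 3 reads, taken as the smallest level that the depth can show, correspond to between 2.46 and 3.64 normalized counts. All 8 T cell markers were detected in every group, with summed levels between 80503 and 138852 normalized counts. Their sum was between 80503 and 97051 in Nr2f6+/+ and between 108220 and 113501 in Nr2f6-/- samples with IgG2b. Markers of macrophages and monocytes were present too. The summed level of these 12 genes with IgG2b was between 13640 and 17060 in Nr2f6+/+ and between 7718 and 11500 in Nr2f6-/- samples. With anti-PD-L1 it was between 1397 and 6200 in Nr2f6+/+ and between 914 and 2339 in Nr2f6-/- samples. In bulk samples such as these, fewer cells of a type and less RNA per cell cannot be told apart.

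With anti-PD-L1, *Tpm4* and *Mvb12a* fell in Nr2f6-/- samples and no neighbour rose. These were 2 of the 51 tested members at an adjusted p under 0.05 in limma, where 21 of all 11992 genes passed (0.175%, and 0.0834% for lower genes). Averaged over both antibodies, *Tpm4* alone of the members passed, among 6 genes in all (0.05%). With IgG2b, no member and no other gene passed (0%) in limma, with 8 members and 641 genes at an unadjusted p under 0.05. edgeR called no gene there either, whereas DESeq2 called 88 genes, among them *Tpm4* with an adjusted p of 0.0216.

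*Tpm4* encodes a tropomyosin, a coiled-coil protein that lies along actin filaments and sets how other proteins bind them. It lies 0.753 Mb from *Nr2f6*, at chr8:72135288-72153142 of GRCm38, and had the second highest mean of the members. In the GENCODE annotation it overlaps *Gm26586* and *Gm16091* on the opposite strand. With IgG2b it had 7987, 6506 and 6878 normalized counts in Nr2f6+/+ and 2949, 4015 and 4038 in Nr2f6-/- samples. With anti-PD-L1 it ranged from 8063 to 10074 with a median of 8832 in Nr2f6+/+, and from 1895 to 4356 with a median of 2449 in Nr2f6-/- samples. All 9 Nr2f6-/- samples were below all 9 Nr2f6+/+ samples. Of all genes tested, 5 (0.0417%) were lower in Nr2f6-/- samples without overlap under each antibody. The log2 fold change was −1.74 (standard error 0.17, adjusted p = 8.06e-07 in limma) with anti-PD-L1, −0.97 (standard error 0.25, adjusted p = 0.480) with IgG2b and −1.36 (standard error 0.15, adjusted p = 8.86e-06) averaged over both. Within the library sets the anti-PD-L1 value was −1.69 in the first (adjusted p = 0.00738) and −1.80 in the second (adjusted p = 0.450), where limma called 0 of all genes with 755 at an unadjusted p under 0.05.

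The other tropomyosin genes lie on other chromosomes and were measured as a comparison. *Tpm3*, the most abundant of them, differed between the library sets and is given within each. With anti-PD-L1 it was between 9915 and 13946 normalized counts in wild-type and between 8709 and 9155 in knockout samples of the first set, which did not overlap. In the second set it was between 15485 and 18558 and between 14318 and 16723, which overlapped, as did the IgG2b groups. Over both sets its log2 fold change was −0.27 (adjusted p = 0.655) and that of *Tpm1* was 0.21 (adjusted p = 0.862), and neither passed the threshold in limma. *Tpm2* was between 0 and 15.8 normalized counts in all samples and was not tested.

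The promoter of *Tpm4* is shown because it is the neighbour with the smallest p in the genotype comparisons, and that of *Mvb12a* because it is the other one past the threshold. Each run is the 250 bases before the start used in the RefSeq promoter windows, read on the + strand of GRCm38.p6. It is chr8:72135038-72135287 for *Tpm4* and chr8:71542680-71542929 for *Mvb12a*. In GENCODE *Tpm4* starts at 72134975, so by that annotation its run lies inside the gene. The *Mvb12a* gene starts before the end of its run, at 71542907 in RefSeq and at 71542922 in GENCODE. Capitals mark AGGTCA, the core motif that nuclear receptors bind, or its reverse complement TGACCT.
Tpm4: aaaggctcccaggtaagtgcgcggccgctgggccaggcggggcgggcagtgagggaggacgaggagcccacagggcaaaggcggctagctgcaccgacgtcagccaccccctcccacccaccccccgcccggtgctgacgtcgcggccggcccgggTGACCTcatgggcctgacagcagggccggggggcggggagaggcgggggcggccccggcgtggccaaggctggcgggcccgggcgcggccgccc
Mvb12a: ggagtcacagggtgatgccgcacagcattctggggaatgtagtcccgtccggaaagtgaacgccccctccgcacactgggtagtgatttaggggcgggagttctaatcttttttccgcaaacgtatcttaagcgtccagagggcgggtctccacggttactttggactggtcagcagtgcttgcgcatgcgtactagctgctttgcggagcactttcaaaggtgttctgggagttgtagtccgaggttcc
The *Tpm4* promoter holds 1 such motif, which begins 94 bases before the start, and the *Mvb12a* promoter holds none. RefSeq windows of 250 bases before to 50 after the start were found for 49 members, 56 windows in all. The core motif was in 6 of these (10.7%) and in 16.3% of all 32851 promoter windows, and besides *Tpm4* the windows were those of *Ccdc124*, *Gatad2a*, *Gdf15*, *Ocel1* and *Use1*. The direct repeat of the core motif with 1 base between the copies was in 0 member windows and in 13 of all windows. The AP-1 motif TGANTCA was in 2 member windows (3.57%) and in 7.81% of all, and the NFAT core GGAAA in 34 (60.7%) and in 61.3% of all, each counted on both strands. A match of letters is not evidence of binding.

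*Mvb12a* encodes a subunit of the ESCRT-I complex, which sorts ubiquitinated membrane proteins into multivesicular bodies. It lies 0.161 Mb from *Nr2f6*. With anti-PD-L1 it ranged from 450 to 1434 with a median of 739 normalized counts in Nr2f6+/+, and from 92.7 to 531 with a median of 162 in Nr2f6-/- samples. The groups overlapped by 1 sample on each side over both library sets, and did not overlap within either set of 3 against 3 samples, a view chosen after seeing the data. In that view 5 of 51 members (9.8%) were lower without overlap in each set, beside 64 of all genes (0.534%). The others were *Tpm4*, *Ifi30*, *Gatad2a* and *B3gnt3*, the last of which reached the testing threshold through the Nr2f6+/+ samples alone. The log2 fold change of *Mvb12a* was −2.00 (standard error 0.40, adjusted p = 0.0257 in limma). With IgG2b the values were 481, 658 and 398 in Nr2f6+/+ and 391, 323 and 292 in Nr2f6-/- samples, and the log2 fold change of −0.59 (adjusted p = 0.989) did not pass. Whether the genotype effect differed between the antibodies was tested, and 0 members passed in limma (0% of all genes, smallest adjusted p of a member 0.974), with *Tpm4* (log2 difference −0.78, unadjusted p = 0.0157) the 1 member under an unadjusted 0.05, beside 4.97% of all genes. The *Mvb12a* call was lost without Nr2f6-/- replicate 2 (adjusted p = 0.0741) and without Nr2f6+/+ replicate 2 (0.0626), replicate 4 (0.0531) or replicate 5 (0.0670), all with anti-PD-L1. edgeR gave 0.0581 and DESeq2 0.00175. With anti-PD-L1 the T cell markers summed to between 85967 and 134595 in Nr2f6+/+ and between 118017 and 138852 in Nr2f6-/- samples. The 5 melanoma markers summed to between 2011 and 7107, with a median of 3310, and to between 736 and 4106, with a median of 1254. The part of either list in the differences of *Tpm4* and *Mvb12a* was not tested.

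**Figure D1:**
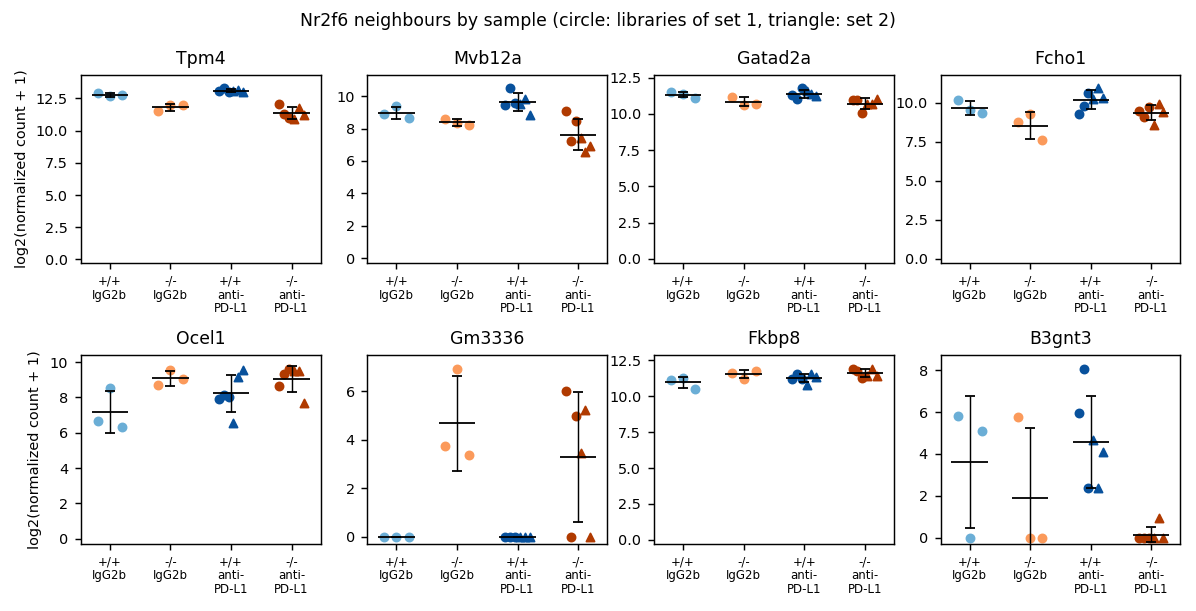
Expression of 8 neighbours of *Nr2f6* in each sample, on the y axis as log2(normalized count + 1), with the 4 groups of genotype and antibody on the x axis. Circles are libraries of the first set and triangles of the second, horizontal lines are means and bars are SD (n = 3 with IgG2b, n = 6 with anti-PD-L1). All 9 Nr2f6-/- samples lie below all 9 Nr2f6+/+ samples in *Tpm4*, and *Gm3336* is at 0 in all Nr2f6+/+ samples.

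The direction of the listed members was counted as a description, on a list chosen with earlier results of these data known. Averaged over both antibodies, 37 of 51 members (72.5%) had a negative log2 fold change, beside 53.7% of all genes tested, with a median of −0.26 beside −0.04 for all genes. The median was −0.22 beside −0.00 with anti-PD-L1 and −0.33 beside −0.06 with IgG2b. Setting the genes with a group at 0 reads to the smallest fold that the depth allows left both medians of the members as they were. The genotype effects with IgG2b and with anti-PD-L1 share no samples. They had the same sign in 36 of 51 members (70.6%) beside 53.4% of all genes, with 26 members lower under both (29% of all genes) and 10 higher under both (24.4% of all genes).

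Averaged over both antibodies, 17 of 51 members (33.3%) had an unadjusted p under 0.05, 14 lower and 3 higher. Of all genes 8.48% did, 4.79% lower and 3.69% higher. Among the tested members, 6 reached the threshold of 10 through 1 genotype alone, with a mean under it in the other. They are included in the directions and medians above, and their p is given no weight here. They were *B3gnt3*, *Cyp4f18*, *Fam129c*, *Gdf15*, *Gm3336* and *Plvap*, and the first 5 of them are among the 17. With anti-PD-L1 there were 8 (15.7%), 7 lower and 1 higher, beside 9.73% of all genes, 5.07% lower and 4.66% higher. With IgG2b there were also 8 (15.7%), 5 lower and 3 higher, beside 5.35% of all genes, 3.32% lower and 2.03% higher. *Tpm4*, *Fcho1* and *Gm3336* were among the 8 under each antibody. Where the threshold was set to 50 normalized counts, the averaged comparison held 11 of 39 members (28.2%), beside 8.54% of all genes.

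**Figure D2:**
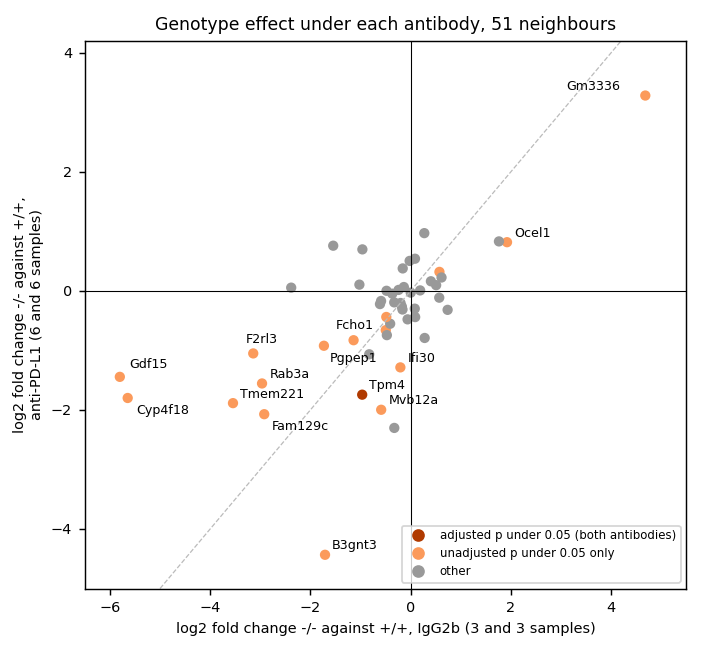
Log2 fold change of Nr2f6-/- against Nr2f6+/+ samples with IgG2b (x axis) and with anti-PD-L1 (y axis) for the 51 tested neighbours, coloured by the p of the average over both antibodies. The dashed line marks equal values, and 26 genes lie in the lower left area, where both values are negative, and 10 in the upper right.

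The genes of the same window that are not on the list were set beside the members, a count chosen after seeing the data. There were 31 such tested genes. Of these, 4 (12.9%) had an unadjusted p under 0.05 averaged over both antibodies, 2 lower and 2 higher, and 14 of 31 were lower, with a median log2 fold change of 0.06. With anti-PD-L1, 21 of these 31 were higher, where 32 of 51 members were lower. Over the whole window, listed or not, 21 of 82 genes (25.6%) had an unadjusted p under 0.05 on the average, with a median of −0.18 and 62.2% lower, and with anti-PD-L1 42 of 82 (51.2%) were lower, beside 50.3% of all genes. Farther out on chromosome 8 the share with such a p was 8.70% at 1.5 to 5 Mb, 12.0% at 5 to 10 Mb, 10.5% at 10 to 20 Mb and 8.42% beyond, and it was 8.43% on other chromosomes. With anti-PD-L1 alone the share was 14.6% in the window, 26.1% at 1.5 to 5 Mb (6 of 23 genes) and 17.9% at 10 to 20 Mb (17 of 95 genes). None of the 143 tested genes at 1.5 to 20 Mb passed the adjusted threshold in limma in any of the genotype comparisons, and the smallest adjusted p was 0.0501, for *Asf1b* averaged over both antibodies. The shares are given as a description, and the difference between them was not tested.

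**Figure D3:**
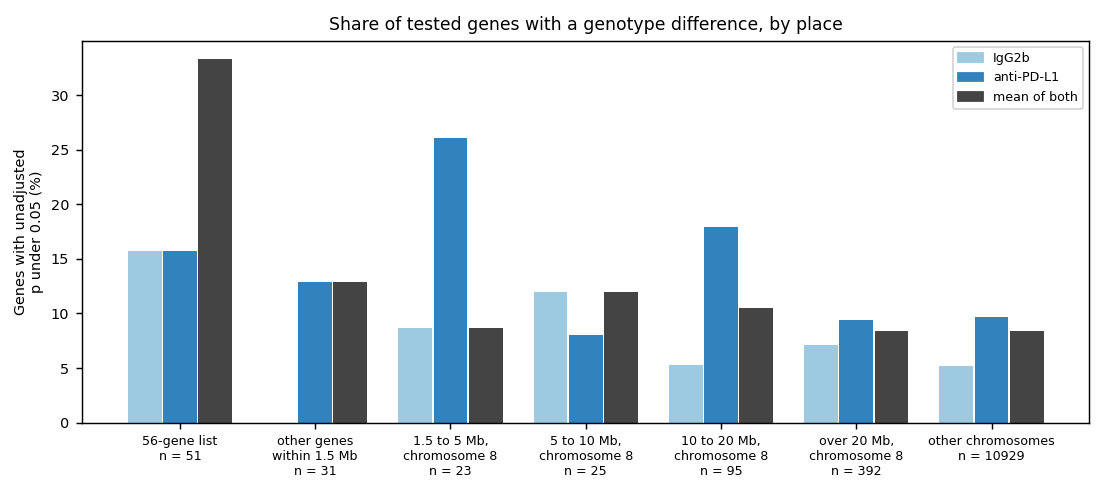
Percentage of tested genes with an unadjusted p under 0.05 between Nr2f6-/- and Nr2f6+/+ samples (y axis) for the listed neighbours, the other genes within 1.5 Mb, bins of distance along chromosome 8 and other chromosomes (x axis, with the number of genes tested). Bars are IgG2b, anti-PD-L1 and the average of both. The listed neighbours reach 33.3% in the average while the other genes of the window reach 12.9%. Of the 17 listed genes behind the 33.3%, 5 reached the testing threshold through 1 genotype alone. The list was chosen with earlier results of these data known.

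Distance within the window was described next. Of the 18 tested members within 0.25 Mb, 5 had an unadjusted p under 0.05 averaged over both antibodies. So had 8 of 14 between 0.25 and 0.75 Mb and 4 of 19 beyond, beside 8.48% of all genes. The 5 include *Fam129c*, and the 8 include *B3gnt3*, *Cyp4f18*, *Gdf15* and *Gm3336*. These named genes reached the testing threshold through 1 genotype alone, and their p is given no weight. On the side of lower coordinates 14 of 22 members were lower, and on the other side 23 of 29 were, beside 53.7% of all genes. *Use1*, *Myo9b* and *Haus8* on one side and *Babam1* and *Mrpl34* on the other, which lie between 4.39 and 101 kb from *Nr2f6*, had log2 fold changes between −0.27 and 0.24 on this average and did not pass. *Abhd8*, a serine hydrolase family member 74.7 kb away, was at −0.79 with anti-PD-L1 (unadjusted p = 0.0261, adjusted p = 0.429) and at 0.28 with IgG2b.

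*Ocel1* is the nearest neighbour, 429 bases from *Nr2f6* in RefSeq, and was higher in Nr2f6-/- samples. With IgG2b it had 102, 364 and 77.9 normalized counts in Nr2f6+/+ and 409, 745 and 526 in Nr2f6-/- samples. With anti-PD-L1 it ranged from 92.8 to 749 with a median of 271 in Nr2f6+/+, and from 204 to 784 with a median of 674 in Nr2f6-/- samples. The groups were apart with IgG2b, as were 6.1% of all genes in this direction, and overlapped with anti-PD-L1. The difference on the log2 scale was 1.92 (standard error 0.68, unadjusted p = 0.00827, adjusted p = 0.846) with IgG2b, 0.82 (adjusted p = 0.617) with anti-PD-L1 and 1.37 (unadjusted p = 0.00258, adjusted p = 0.261) averaged over both. In the GENCODE annotation *Ocel1* runs from 71371298 to 71379361 and overlaps *Nr2f6*, which runs from 71374123 to 71381960 on the opposite strand, and the strand setting of the counting is not given. Reads of either gene in the shared stretch can therefore not be assigned with certainty.

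**Figure D4:**
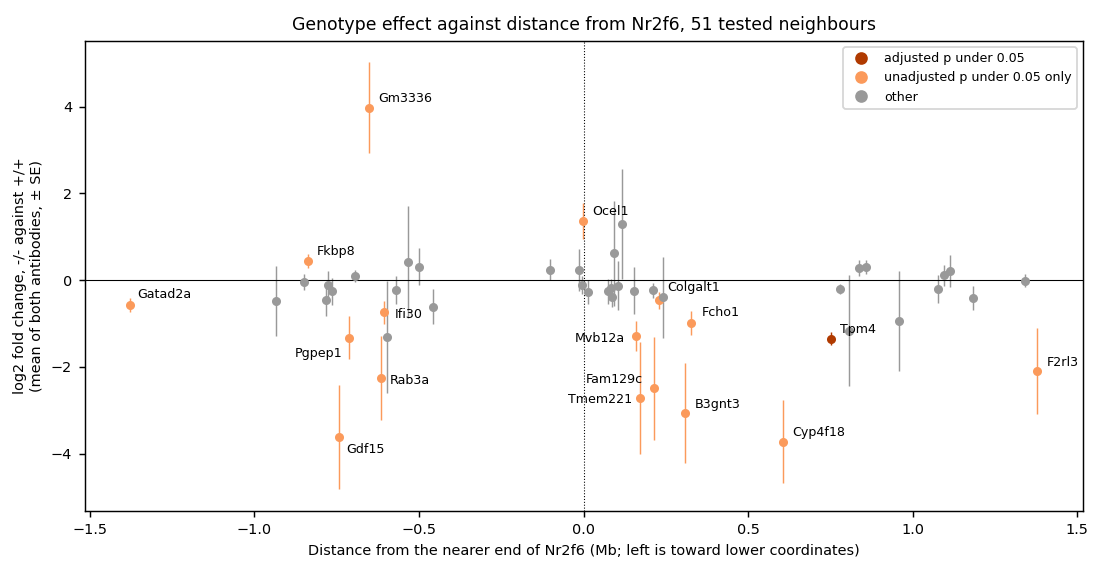
Log2 fold change of Nr2f6-/- against Nr2f6+/+ samples averaged over both antibodies (y axis, with standard error) against the distance from the nearer end of *Nr2f6* in Mb (x axis) for the 51 tested neighbours. Of the 17 coloured genes with an unadjusted p under 0.05, *Gm3336*, *Ocel1* and *Fkbp8* are above 0 and the other 14 are below it. *Tpm4* alone passes the adjusted threshold. Among the 17, *B3gnt3*, *Cyp4f18*, *Fam129c*, *Gdf15* and *Gm3336* reached the testing threshold through 1 genotype alone.

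*Gm3336*, a predicted gene 0.651 Mb from *Nr2f6*, was detected in Nr2f6-/- samples alone. It had 0 reads in all 9 Nr2f6+/+ samples. Among Nr2f6-/- samples it had 12.4, 121 and 9.37 normalized counts with IgG2b, and 63.2, 0, 30.4, 9.99, 36.9 and 0 with anti-PD-L1. Detection was thus in 7 of 9 Nr2f6-/- samples, and against the level of 3 reads per library the mean was at least 17.3-fold higher with IgG2b and at least 8.19-fold higher with anti-PD-L1. The groups were apart with IgG2b, as were 6.1% of all genes in this direction, and overlapped with anti-PD-L1. *Gm3336* reached the testing threshold through the Nr2f6-/- samples alone, so its values are a description.

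Of the 9 tested members of vesicle and membrane traffic besides *Mvb12a*, 7 were lower averaged over both antibodies, beside 53.7% of all genes, with a median log2 fold change of −0.20. *Fcho1*, which helps to start clathrin-coated pits, had 1137, 751 and 636 normalized counts in Nr2f6+/+ and 425, 614 and 194 in Nr2f6-/- samples with IgG2b. With anti-PD-L1 it ranged from 618 to 1956 with a median of 1232 in Nr2f6+/+, and from 388 to 957 with a median of 695 in Nr2f6-/- samples. The groups were apart with IgG2b, as were 8.07% of all genes in this direction, and overlapped with anti-PD-L1. Its log2 fold change was −1.14 (unadjusted p = 0.0159) with IgG2b, −0.83 (unadjusted p = 0.0132) with anti-PD-L1 and −0.98 (standard error 0.27, adjusted p = 0.208) averaged over both. *Rab3a*, a GTPase of regulated exocytosis, was at −2.26 (unadjusted p = 0.0273, adjusted p = 0.514) on this average. *Rab8a*, a GTPase of transport to the plasma membrane and the most abundant member, had a mean of 6380 normalized counts and was at −0.20 (adjusted p = 0.701).

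Among the 6 members of chromatin and transcription, 5 were lower averaged over both antibodies, beside 53.7% of all genes. An unadjusted p under 0.05 was reached by 1 of them, beside 8.48% of all genes. *Gatad2a*, a subunit of the NuRD chromatin remodelling complex and the member 1.38 Mb from *Nr2f6*, had 2881, 2648 and 2241 normalized counts in Nr2f6+/+ and 2348, 1592 and 1628 in Nr2f6-/- samples with IgG2b. With anti-PD-L1 it ranged from 2048 to 3510 with a median of 2589 in Nr2f6+/+, and from 1064 to 2062 with a median of 1799 in Nr2f6-/- samples. The anti-PD-L1 groups overlapped only between 2048 and 2062 and did not overlap within either library set, as for 0.534% of all genes in this direction. On the log2 scale the difference was −0.66 (standard error 0.19, adjusted p = 0.201) with anti-PD-L1 and −0.50 with IgG2b. *Sin3b*, a corepressor scaffold with a mean of 4359 normalized counts, was at −0.01 (adjusted p = 0.990) averaged over both antibodies.

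Of the signaling and survival members, *Fkbp8*, an immunophilin that keeps BCL2 at mitochondria, was higher. It had 2212, 2479 and 1452 normalized counts in Nr2f6+/+ and 3213, 2357 and 3467 in Nr2f6-/- samples with IgG2b, and the groups overlapped. This gave a log2 fold change of 0.57 (unadjusted p = 0.0365) with IgG2b, 0.32 with anti-PD-L1 and 0.45 (unadjusted p = 0.00939, adjusted p = 0.379) averaged over both. *Lsm4*, an RNA-binding protein of the spliceosome and of mRNA decay, had a mean of 3791 normalized counts and a log2 fold change of 0.10 (adjusted p = 0.893), and none of the 5 members of RNA and mitochondrial expression had an unadjusted p under 0.05.

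Members of metabolism and glycosylation were lower in 5 of 6 tested genes averaged over both antibodies, beside 53.7% of all genes. *B3gnt3*, a glycosyltransferase that extends core O-glycans, had 61.6, 267, 4.18, 24.1, 4.11 and 16.3 normalized counts in Nr2f6+/+ samples with anti-PD-L1, and among the 6 Nr2f6-/- samples it had 0 in all but replicate 5, with 0.900. It was thus apart from Nr2f6+/+ in this comparison, 1 of 2 members that were lower without overlap (0.2% of all genes), the other being *Tpm4*. *B3gnt3* reached the testing threshold through the Nr2f6+/+ samples alone, so its values are a description, also in the count of 5 of 6. The 1 read of Nr2f6-/- against 375 of Nr2f6+/+ samples gave a ratio of 0.00275 (exact 95% interval 6.95e-05 to 0.0154, counting error only). The interval pools the reads of each group and leaves out the spread between samples. With IgG2b *B3gnt3* had 54.5, 0 and 33.2 in Nr2f6+/+ and 53.3, 0 and 0 in Nr2f6-/- samples, which overlapped. *Colgalt1*, a galactosyltransferase of collagen, was at −0.46 (unadjusted p = 0.0230, adjusted p = 0.496) averaged over both antibodies.

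*Pgpep1*, a peptidase that removes pyroglutamate from the start of peptides, was the 1 member of DNA repair and protein turnover with an unadjusted p under 0.05. It had 316, 411 and 280 normalized counts in Nr2f6+/+ and 77.1, 117 and 108 in Nr2f6-/- samples with IgG2b. These values did not overlap, as for 8.07% of all genes in this direction. The groups overlapped with anti-PD-L1, and the averaged log2 fold change was −1.33 (unadjusted p = 0.0112, adjusted p = 0.401). *Tmem221*, a gene of the window whose role is not stated here, was at −2.72 (unadjusted p = 0.0435), with 0 reads in some samples of both genotypes.

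All 5 tested members among the interferon, myeloid and lymphocyte genes were lower averaged over both antibodies, beside 53.7% of all genes. Their median log2 fold change was −1.17, and 3 had an unadjusted p under 0.05, beside 8.48% of all genes. Of these 3, *Cyp4f18* and *Fam129c* reached the testing threshold through the Nr2f6+/+ samples alone. Their p is given no weight, and their direction and part in the median are a description. *Ifi30*, *Bst2* and *Hsh2d* were at −0.75, −0.24 and −1.17 averaged over both antibodies. *Ifi30*, a thiol reductase of antigen processing, ranged from 636 to 1579 with a median of 892 normalized counts in Nr2f6+/+ and from 185 to 646 with a median of 447 in Nr2f6-/- samples with anti-PD-L1. The groups overlapped only between 636 and 646 and were apart within each library set, as were 0.534% of all genes in this direction. The log2 fold change was −1.29 (standard error 0.32, unadjusted p = 0.000331, adjusted p = 0.0829) with anti-PD-L1. With IgG2b *Ifi30* had 1013, 1716 and 1047 in Nr2f6+/+ and 1756, 833 and 811 in Nr2f6-/- samples, and its value there was −0.21 (adjusted p = 1). *Cyp4f18*, a cytochrome P450 of leukotriene breakdown in myeloid cells, had 119, 21.9 and 44.8 in Nr2f6+/+ and 0 in all 3 Nr2f6-/- samples with IgG2b, at least 21.0-fold lower against the level of 3 reads per library. These groups did not overlap, as for 8.07% of all genes in this direction. *Cyp4f18* reached the testing threshold through the Nr2f6+/+ samples alone, so its values are a description. With anti-PD-L1 it had 1 read over the 6 Nr2f6-/- and 49 over the 6 Nr2f6+/+ samples. The ratio was 0.0211 (exact 95% interval 0.000523 to 0.123, counting error only), from pooled reads and without the spread between samples.

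The macrophage and monocyte markers were set beside these genes. Of the 12 markers, 11 were lower in Nr2f6-/- samples averaged over both antibodies, with 0 past the adjusted threshold, and their summed level in the IgG2b groups did not overlap. With anti-PD-L1 the median sum was 2172 in Nr2f6+/+ and 1809 in Nr2f6-/- samples, and the groups overlapped. Their part in the differences of *Ifi30*, *Cyp4f18* and *Lrrc25* was not tested. *Lrrc25*, a myeloid leucine-rich repeat protein, was detected in 2 of the Nr2f6+/+ samples with IgG2b alone, at 5.21 and 8.29 normalized counts.

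**Figure D5:**
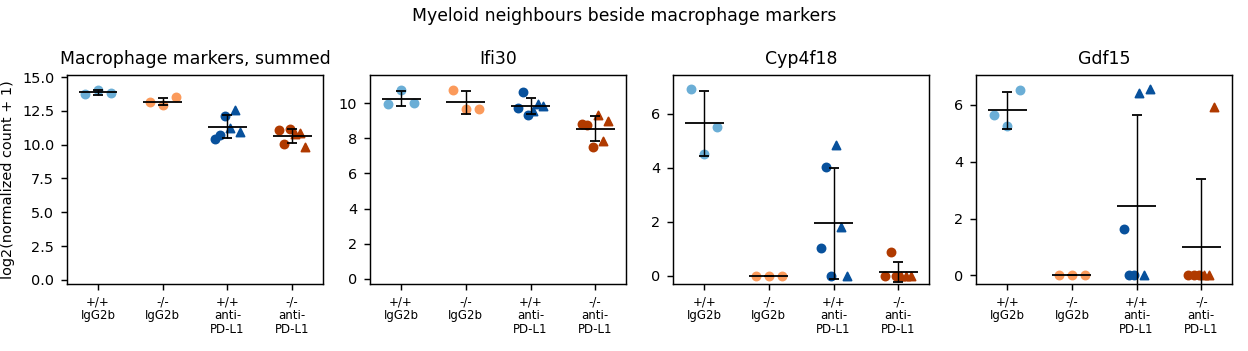
Summed level of 12 macrophage and monocyte markers, and the levels of *Ifi30*, *Cyp4f18* and *Gdf15*, in each sample as log2(normalized count + 1) on the y axis, by genotype and antibody on the x axis. Symbols, means and SD bars (n = 3 with IgG2b, n = 6 with anti-PD-L1) are drawn as for the other neighbours. *Cyp4f18* and *Gdf15* are at 0 in all Nr2f6-/- samples with IgG2b, where the marker sum is between 7718 and 11500. These genes reached the testing threshold through the Nr2f6+/+ samples alone.

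*Fam129c*, a B cell gene that overlaps *Pgls* on the same strand in GENCODE, had log2 fold changes of −2.92 with IgG2b and −2.07 with anti-PD-L1, and no Nr2f6-/- sample exceeded 4.34 normalized counts. It was at 0 in 4 of 9 Nr2f6+/+ samples too, so the groups overlapped. Of the 2 tested B cell markers, 2 were lower with IgG2b and 0 with anti-PD-L1, and the sum of the list overlapped between the genotypes under each antibody. *Bst2*, the interferon-induced restriction factor tetherin, was at −0.24 (adjusted p = 0.944), and *Hsh2d*, an adaptor of lymphocytes, at −1.17 (adjusted p = 0.855). Neither had an unadjusted p under 0.05 under any antibody.

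Of the secreted, endothelial and platelet genes, *Gdf15* and *F2rl3* were lower averaged over both antibodies, and neither passed the adjusted threshold in limma. *Gdf15*, a stress-induced cytokine of the TGF-β family, had 48.3, 37.5 and 90.4 normalized counts in Nr2f6+/+ and 0 in all 3 Nr2f6-/- samples with IgG2b, at least 20.0-fold lower against the level of 3 reads per library. These values did not overlap, as for 8.07% of all genes in this direction. *Gdf15* reached the testing threshold through the Nr2f6+/+ samples alone, so its values are a description. With anti-PD-L1 it was above 0 in 3 of 6 Nr2f6+/+ and in 1 of 6 Nr2f6-/- samples. *F2rl3*, the thrombin receptor PAR4 of platelets, had 66.8, 250 and 97.8 in Nr2f6+/+ and 0, 262 and 8.33 in Nr2f6-/- samples with IgG2b, which overlapped, and its averaged log2 fold change was −2.10 (unadjusted p = 0.0433, adjusted p = 0.574). The platelet markers summed to between 2300 and 2611 in Nr2f6+/+ and between 268 and 703 in Nr2f6-/- samples with IgG2b. This sum rests on *Pf4* and *Ppbp* in Nr2f6+/+ and on *Pf4* alone in Nr2f6-/- samples, since *Itga2b*, *Gp9* and *Gp1bb*, the other 3 of the 5 platelet markers, were at 0 in all IgG2b samples. Melanoma markers summed to between 2351 and 4481 and between 1144 and 2200 in the same groups. The part of these markers in the differences of *F2rl3* and *Gdf15* was not tested. *Plvap*, a protein of endothelial diaphragms, was at 1.30, with overlapping sums of the endothelial markers in both genotypes.

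No neighbour passed the adjusted threshold in limma between the antibodies. The anti-PD-L1 samples of both library sets entered this comparison, while the IgG2b samples belong to the first alone. In Nr2f6+/+ samples 0 of 51 members passed, where 29 of all genes did (0.242%), and 6 members had an unadjusted p under 0.05, beside 7.24% of all genes. In Nr2f6-/- samples 0 members passed, where 39 genes did (0.325%), and 5 members had an unadjusted p under 0.05, beside 9.7% of all genes. *Ifi30* had the smallest p there, with a log2 fold change of −1.49 for anti-PD-L1 against IgG2b (unadjusted p = 0.000587, adjusted p = 0.106 in limma), and DESeq2 gave an adjusted p of 0.0194. The other 4, named after their values were seen, were *Tpm4* (−0.46), *Fcho1* (0.83), *Kxd1* (0.56) and *Sin3b* (0.47). Within the first set 0 members passed in either genotype. There 5 members had an unadjusted p under 0.05 in Nr2f6+/+ samples, beside 9.01% of all genes, and 2 in Nr2f6-/- samples, beside 9.75%. These 2 were *Ifi30*, at −1.67 (adjusted p = 0.182), and *Pgpep1*, at 1.40 (adjusted p = 0.423), and the other 4 genes did not reach this p within the set. The macrophage marker sum was lower with anti-PD-L1 than with IgG2b in all samples of either genotype, and its part in the *Ifi30* value was not tested.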

How the data were processed

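RNA of sorted CD3+ T cells from tumors was sequenced from the 3′ ends of transcripts in the 18 samples described above. The authors trimmed the reads, aligned them to mm10, the assembly also called GRCm38, and counted them per gene with HTSeq. The values that the authors deposited (unit: signal) are these counts, scaled in each sample by 1 size factor, and they are called normalized counts here. The annotation, strand setting and tool versions of the counting are not given in the sources used here. By GENCODE, 24 members overlap another gene, and where they do reads could be assigned to either. The labels do not say whether each sample is 1 mouse, and the study names fewer mice per anti-PD-L1 group than there are samples here, so p-values measure the spread between these samples, which may be partly technical.

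All 18 columns were used. Every value in them was a whole multiple of 1 step per column (100% of 670248 values, tolerance 0.001 reads), with size factors between 0.823 and 1.22. In 2 columns, those of Nr2f6-/- anti-PD-L1 replicates 4 and 6, the step was too near 1 for an automatic check to tell it from other values. The recovered reads entered edgeR (version 4.0.16) and DESeq2 (version 1.42.0) as alternatives only. No 2 columns were identical (0 of 153 pairs).

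The test was limma (version 3.58.1, R 4.3.3) on log2(normalized count + 1), for the 11992 genes with a mean of 10 or more, in 1 model of the 4 group means with the trend option of eBayes. Fold changes are on this scale, which understates those of low genes. P-values are two-sided and were adjusted over all genes by Benjamini-Hochberg, and all p-values in the text are limma's unless another tool is named. The average over both antibodies gives each antibody the same weight. Genes were placed by RefSeq (GRCm38.p6), which matched 28334 symbols (76.1%), and promoters were taken from the same source. The tests were checked on simulated data.

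The members and lists were chosen with earlier results of these data known. Members named are those with an unadjusted p under 0.05 in a genotype comparison, the 4 nearest on each side of *Nr2f6*, the 5 with the highest mean, and the immune, secreted, endothelial and platelet members. *Tpm1*, *Tpm2*, *Tpm3* and marker genes were added. Alternatives were other pseudocounts (0.5 and 10), other filters (none, and a mean of 50 or more), quantile and TMM scaling, only the groups compared, library set as covariate, each library set alone, a replicate block, both count tools, and leaving out each sample.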

Additional observations from a re-analysis of the deposited data

Results flagged for a closer look

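In 9 of the 58 groups of 6 samples examined (15.5%), 1 sample lay far from the others. In 3 of the 9 all other samples were at 0, which fixes the measure, so the rate of about 1 in 20 that chance gives does not apply to such low genes. The groups under IgG2b have 3 samples and were not examined. In Nr2f6+/+ samples, *B3gnt3* had 267 normalized counts in replicate 2, beside 4.11 to 61.6 in the others, and *Ifi30* had 1579 in the same sample, beside 636 to 980. Replicate 1 stood apart in *Bst2*, with 1021 beside 75.2 to 166, and in *Plvap*, with 19.8 beside 0 to 6.57.

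In Nr2f6-/- samples, *Gdf15* had 59.1 in replicate 6, *B3gnt3* had 0.900 in replicate 5 and *Cyp4f18* had 0.868 in replicate 2, each beside 0 in the other samples. The last 2 of these values are single reads. *Tmem221* had 70.7 in replicate 1, beside 0 to 5.99, and *Hsh2d* had 81.9 in replicate 4, beside 0 to 8.68.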

How the results depend on the processing

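With anti-PD-L1, limma called 2 members, *Tpm4* and *Mvb12a*. The count was 1, *Tpm4*, with no filter on low values, with only the groups compared, in the first library set alone and in edgeR, it was 0 in the second library set alone, and it was between 1 and 2 when each sample was left out in turn. The second set alone has 3 samples per genotype. DESeq2 called 5 members with anti-PD-L1 (*Tpm4*, *Mvb12a*, *B3gnt3*, *Ifi30* and *Gatad2a*), 1 with IgG2b (*Tpm4*), 6 averaged over both antibodies (*Tpm4*, *Mvb12a*, *Fcho1*, *Gatad2a*, *Cyp4f18* and, higher, *Gm3336*) and 1 for anti-PD-L1 against IgG2b in Nr2f6-/- samples (*Ifi30*). Among these, *B3gnt3*, *Cyp4f18* and *Gm3336* reached the testing threshold through 1 genotype alone, and their p is given no weight. Of all genes DESeq2 called 184 with anti-PD-L1 and 181 on average, against 21 and 6 in limma. The cause of the difference between the tools was not tested. The genotype fold changes with an unadjusted p under 0.05 kept their sign under the alternatives that were run. Of the 51 tested members, 16 had the opposite sign with anti-PD-L1 in 1 library set alone, among them *Tmem221* (−1.89 over both sets, 0.97 in the first and −4.74 in the second), and 0 of these 16 had such a p over both sets. *Tpm4* lost its anti-PD-L1 call in the second set alone, and *Nr2f6* itself lost it in each set alone. The anti-PD-L1 value of *Tpm4* ranged from −1.80 to −1.68 over the alternatives other than leaving out samples. Members with an unadjusted p under 0.05 averaged over both antibodies numbered between 11 and 18, with IgG2b between 5 and 11, and with anti-PD-L1 between 6 and 11. The 5 with IgG2b came without Nr2f6-/- replicate 3, without Nr2f6+/+ replicate 3 and at a minimum mean of 50.

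Groups share replicate numbers, but same-numbered samples did not deviate together, with correlations between −0.0292 and 0.0366 over 21 pairs. The samples were treated as unpaired, although correlations over all tested genes cannot exclude a weaker pairing. A fit with a replicate block called 2 members with anti-PD-L1, 0 with IgG2b and 1 on average, and 31 genes in all with anti-PD-L1.

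Depth limits the members of low level. Where a group holds no or single reads, as for *B3gnt3*, *Cyp4f18*, *Gdf15* and *Gm3336*, fitted fold changes depend on the pseudocount.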
